A study of Homo sapiens with 9 samples.

Results

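S100A14 and S100A4 are members of the S100 family of small calcium-binding proteins, and their transcripts were followed here in HCT116 cells, an established human colorectal carcinoma line, with and without an shRNA against the histone variant H2A.X. Both genes were chosen by their measured values in this same contrast, as the S100A genes whose probe sets moved in opposite directions. Their own differences are therefore given as a description, with no test, and the other S100A genes are given as the family around them. The pair makes up 2 of the 16 S100A genes measured and 2 of the 14884 named genes of the array (Affymetrix Human Gene 2.0 ST). The control group, shCTRL, held 4 arrays of cells infected with a scrambled shRNA, and the shH2A.X group held 5 arrays of cells infected with an shRNA against H2AFX, the gene of H2A.X. All cells were grown in medium with 10% serum for 72 h, and 100 ng of total RNA went into each array. Per the study's methods, both lines came from the same parental cells, were infected with lentivirus and selected with puromycin, and a single hairpin served the knockdown, so these arrays cannot tell the loss of H2A.X apart from other effects of that hairpin. No probe set named here belongs to H2AFX, and its level was not analysed here.

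S100 proteins carry a pair of EF-hand calcium-binding motifs and mostly act as dimers. On binding calcium many of them expose a surface that grips target proteins, such as annexins and cytoskeletal proteins, and several are also released from cells and act on surface receptors. In colon, S100A14 is a protein of epithelial cells with a weakened calcium site, whereas S100A4 is known for its part in cell motility and metastasis, for binding non-muscle myosin and as a transcriptional target of β-catenin and TCF. Most S100A genes lie in a cluster on the long arm of chromosome 1 within the epidermal differentiation complex.

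Both genes lie in that cluster on the minus strand. In the RefSeq gene table (GRCh38.p14) S100A14 spans chr1:153614255-153616325 and S100A4 spans chr1:153543621-153545806. Their promoter windows, running from 250 bases before to 50 bases after the annotated start, are printed because the E-box CAGGTG, the site bound by the repressors Slug and ZEB1, could be searched for in them. The genes for these repressors, SNAI2 and ZEB1, were higher in shH2A.X cells, as given further on. Both sequences are from RefSeq and read 5′ to 3′ along the gene's own strand. Capitals mark matches to the E-box in either orientation (CAGGTG or CACCTG), to the TATA motif TATAAA and to the AP-1 motif TGANTCA.
S100A14, chr1:153616276-153616575, minus strand: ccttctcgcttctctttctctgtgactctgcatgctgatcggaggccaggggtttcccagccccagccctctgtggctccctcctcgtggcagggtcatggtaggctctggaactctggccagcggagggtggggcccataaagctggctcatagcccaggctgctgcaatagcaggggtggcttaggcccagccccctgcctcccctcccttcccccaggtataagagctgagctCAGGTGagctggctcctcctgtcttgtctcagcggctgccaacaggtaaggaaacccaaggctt
S100A4, chr1:153545757-153546056, minus strand: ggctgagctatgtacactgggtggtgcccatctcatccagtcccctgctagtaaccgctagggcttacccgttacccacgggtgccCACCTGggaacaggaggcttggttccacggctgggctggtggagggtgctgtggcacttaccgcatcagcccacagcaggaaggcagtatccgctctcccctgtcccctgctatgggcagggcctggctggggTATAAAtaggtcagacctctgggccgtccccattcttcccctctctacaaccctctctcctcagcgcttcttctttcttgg

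With the base just before the start counted as -1, the E-box of S100A14 began at -14 and that of S100A4 at -164. The S100A4 window also held TATAAA at -31, which was not found in the S100A14 window, and the AP-1 letters were found in neither. The E-box is common, as 20.6% of 35116 promoter windows of all genes held it and so did 12 of the 23 windows annotated to S100A genes, which belonged to 9 of the 16 genes and partly overlap. S100A16 had it in each of its windows, at -191 and -178 in the upstream window and at 45 in the other. The S100A3 window had none, but held TGAGTCA at -225. Of the other motifs, TATAAA was present in 8 of the 23 S100A windows against 11.5% of all windows, and TGANTCA in 4 of 23 against 7.71%. Both windows were poor in CpG, with observed over expected ratios of 0.174 for S100A14 and 0.293 for S100A4 against a median of 0.579 over all windows. Their GC contents of 62% and 60.7% were close to the median of 58.7%. A match to these letters is a description of the sequence only, since binding was not measured.

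The 9 arrays were of like brightness, with medians between 4.54 and 4.577 on the deposited log2 scale. Pairs of arrays correlated at 0.9938 to 0.9953 within a group and at 0.9851 to 0.986 between groups. The median SD of a gene within a group was 0.127. The study's legend calls the replicates independent, but no source states separate infections. A p-value here therefore reflects only how far the arrays of a group scattered, which may be technical. Of all named genes, 12.2% were higher and 10.7% lower in shH2A.X cells at an adjusted p under 0.05 in the limma fit. These are the shares against which each count of members below is read.

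S100A14 was among the transcripts that fell furthest. The log2 values in the shCTRL arrays were 9.31, 9.30, 9.46 and 9.25, and those in the shH2A.X arrays were 6.27, 6.24, 6.62, 6.47 and 6.22. The groups were far from overlapping, with 2.63 log2 units between the dimmest shCTRL array and the brightest shH2A.X array, and replicates 3 and 4 were the brightest of the shH2A.X arrays. Mean levels were 9.33 ± 0.09 (SD, n = 4) in shCTRL and 6.36 ± 0.17 (SD, n = 5) in shH2A.X, a log2 difference of -2.97 with an SE of 0.09. On a linear scale the shCTRL level was 7.81 times that of shH2A.X. By size this was the 4th largest fall among all 14884 genes. The transcript was not brought down to the level of dim probe sets, since all shH2A.X arrays stayed above the array medians. In RNA from whole cultures, fewer cells with the transcript and less transcript in each cell cannot be told apart.

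S100A4 moved the other way and by less. The log2 values were 6.64, 6.76, 6.72 and 6.78 in the shCTRL arrays and 7.38, 7.74, 7.47, 7.76 and 7.72 in the shH2A.X arrays. Again the groups did not overlap, with a gap of 0.59, and within shH2A.X, replicates 1 and 3 were the dimmest. Mean levels were 6.72 ± 0.07 (SD, n = 4) and 7.61 ± 0.18 (SD, n = 5), a log2 difference of 0.89 with an SE of 0.09, or 1.85 times the shCTRL level. The rise ranked 148th among all genes. In both genes the shH2A.X arrays were more spread than the shCTRL arrays.

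**Figure D1:**
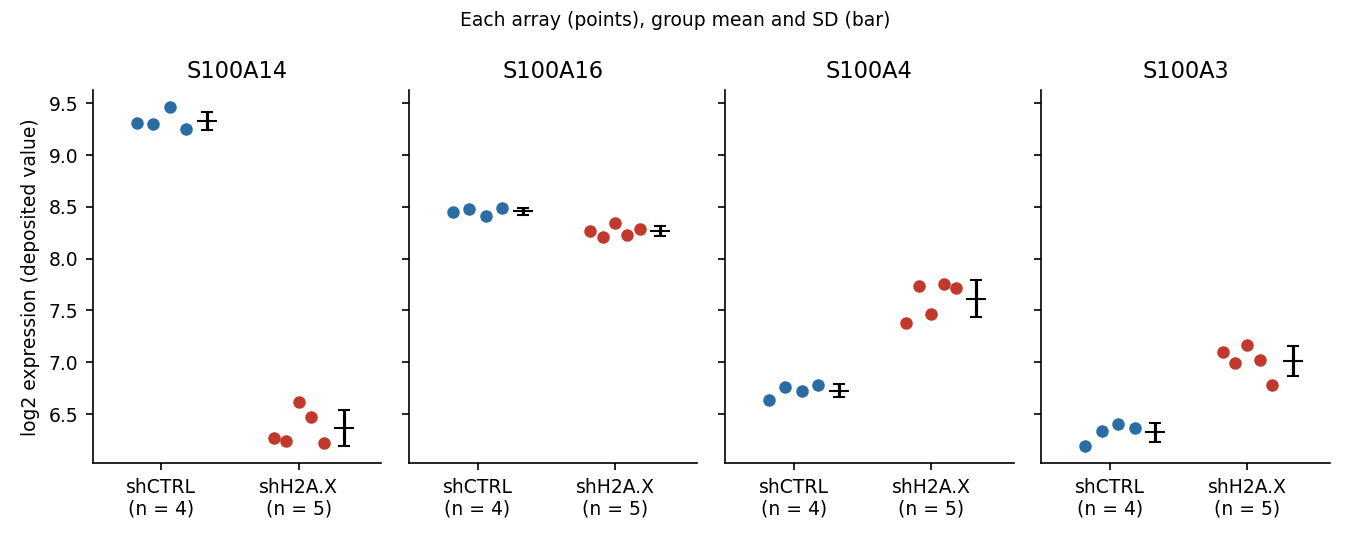
Log2 intensity of S100A14, S100A16, S100A4 and S100A3 on each array, with points for the 4 shCTRL and 5 shH2A.X arrays and bars for the mean and SD of each group. The S100A14 groups lie 2.63 log2 units apart and the S100A4 groups 0.59 apart in the opposite direction, and heights cannot be compared between genes.

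The other S100A genes mostly moved little. Of the 14 measured besides S100A14 and S100A4, 4 were higher, 1 was lower and 9 did not pass the test in the limma fit at an adjusted p under 0.05. Over all genes 12.2% were higher and 10.7% lower, and with so few members nothing particular to the family can be read from these counts. The median log2 difference of the family was 0.05 with or without the chosen pair, against 0.004 over all genes. S100A7L2 was not named here.

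S100A3, a zinc-binding S100 protein known from the hair cuticle, rose most among these relatives. Its values were 6.19, 6.34, 6.40 and 6.37 in shCTRL and 7.10, 6.99, 7.17, 7.02 and 6.78 in shH2A.X, with no overlap. The log2 difference was 0.69 (SE 0.08, limma adjusted p = 0.000115). S100A3 is the next gene to S100A4 on the same strand, 1522 bases away. S100A2 and S100A6, in the same stretch, were also higher by 0.33 and 0.28, whereas S100A5 among them, dim in shCTRL, differed by -0.01. S100A4 itself was chosen by its values here, and a link between place and rise was not tested.

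S100A10, the partner of annexin A2 in a membrane-bound complex, rose from 6.45, 6.33, 6.30 and 6.52 to 6.76, 6.73, 6.80, 6.80 and 6.78. Every shH2A.X array lay above every shCTRL array, and the log2 difference was 0.37 (SE 0.06, adjusted p = 0.000964). S100A2, an S100 protein of epithelial cells, had values of 5.77, 5.75, 5.68 and 5.58 in shCTRL and 6.06, 5.84, 6.04, 6.05 and 6.14 in shH2A.X. Its groups were also separate, though replicate 2 of shH2A.X came close to the controls, and the difference was 0.33 (SE 0.07, adjusted p = 0.00614). S100A6, or calcyclin, had values of 6.16, 6.50, 6.55 and 6.41 in shCTRL and 6.60, 6.61, 6.85, 6.63 and 6.73 in shH2A.X. Replicate 1 of shCTRL stood lowest, and the groups were separated by only a narrow margin. The difference was 0.28 (SE 0.09, adjusted p = 0.0404). This call was lost without shCTRL replicate 1 (adjusted p = 0.102) or 4 (0.079), without shH2A.X replicate 2 (0.0535), 3 (0.0869), 4 (0.0566) or 5 (0.0808), and in the methods' t-test, run per gene with equal variances and Benjamini-Hochberg adjustment (0.0805).

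S100A16, a widely expressed relative that is known to pair with S100A14 protein, was the S100A gene that fell. It read 8.45, 8.48, 8.41 and 8.49 in shCTRL and 8.27, 8.21, 8.34, 8.23 and 8.29 in shH2A.X. The groups did not overlap, but the log2 difference was only -0.19 (SE 0.05, adjusted p = 0.0275), against -2.97 for S100A14. Leaving out shCTRL replicate 1 (0.0512), 2 (0.0733) or 4 (0.0635), or shH2A.X replicate 1 (0.0507), 2 (0.0697) or 4 (0.0596), lifted the adjusted p of the limma fit above the threshold. S100A13, known for its part in the export of FGF1 and the gene on the other side of S100A14, read 6.45, 6.42, 6.41 and 6.29 in shCTRL and 6.33, 6.09, 6.28, 5.91 and 6.08 in shH2A.X. Its groups overlapped, since shH2A.X replicate 1 exceeded shCTRL replicate 4. The difference of -0.26 (SE 0.09) missed the threshold at an adjusted p of 0.0532 and passed in 5 of 17 alternative analyses, among them without shH2A.X replicate 1 (0.0257) or 3 (0.0403).

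The remaining 8 family members did not pass. S100A9, which forms calprotectin with S100A8 in myeloid cells, differed by 0.25 (adjusted p = 0.15) and S100A8 by 0.11. S100A12, another myeloid S100 protein, differed by -0.33 (adjusted p = 0.0557) and passed in 3 of the 16 alternatives that gave it a value, among them without shCTRL replicate 4 (0.0297) or shH2A.X replicate 2 (0.047). S100A11, an abundant partner of annexin A1, differed by -0.03, S100A1, known from heart muscle, by 0.02, and S100A5 by -0.01. The psoriasin gene S100A7 differed by 0.08 and its near-identical copy S100A7A by -0.23, and these values are uncertain because probes may not separate the copies. S100A7A, S100A8 and S100A12 lay below the array medians in both groups, and S100A5 and S100A7 did so in shCTRL, so little can be said of their change. Outside the cluster, the S100 genes of other chromosomes did not pass either, with log2 differences of 0.13 for S100B, -0.06 for S100G, -0.09 for S100P and 0.07 for S100Z. None of these 4 passed at an unadjusted p under 0.05 or in the methods' t-test, which gave 0 calls in each direction. S100B and S100G lay below the array medians in both groups, which limits what these 0 calls can show.

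**Figure D2:**
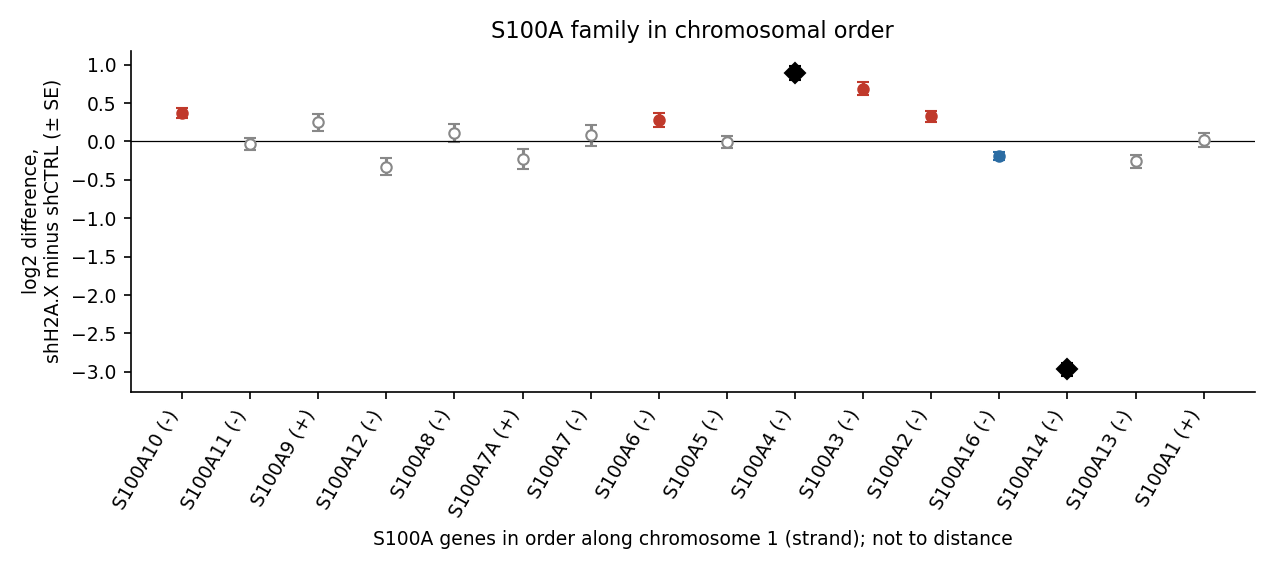
Log2 difference (shH2A.X minus shCTRL) with SE of the 16 measured S100A genes in their order along chromosome 1. Black diamonds are S100A14 (-2.97) and S100A4 (0.89), shown without a test, filled circles are the 4 genes higher and the 1 gene lower in the limma test, and open grey circles are the 9 that did not pass.

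Along the chromosome the changes were uneven over short distances. The cluster ran in the order S100A10, S100A11, then after a stretch of other genes S100A9, S100A12, S100A8, S100A7A, S100A7, S100A6, S100A5, S100A4, S100A3, S100A2, S100A16, S100A14, S100A13 and S100A1. S100A6, S100A4, S100A3 and S100A2, whose starts lie at -80.3, -70.5, -67.1 and -50.5 kb from that of S100A14, all had higher means in shH2A.X. S100A5 sits among them, overlaps S100A4 by 65 bases on the same strand, and differed by -0.01 (SE 0.08). Its shCTRL values lay below the array medians, so little can be said of its change. A gap of 41038 bases separates S100A2 from S100A16. S100A16 lies 1117 bases from S100A14 and S100A13 lies 2473 bases from it on the other side, and their differences of -0.19 and -0.26 stood beside the -2.97 of S100A14 itself.

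The genes around the family gave few calls. Of 58 named genes of other families between the ends of the cluster, with 250 kb added on either side, 1 was higher, 3 were lower and 54 did not pass. Over all genes 12.2% were higher and 10.7% lower. Many of the 58, among them most LCE genes, lay below the array medians in both groups, so little can be said of their change. The neighbours whose start lies within 250 kb of that of S100A14 were CHTOP at 0.10, SNAPIN at -0.02, NPR1 at 0.03 and INTS3 at -0.01 on the log2 difference scale. None of these 4 passed in the limma fit, at an unadjusted p under 0.05 or in the methods' t-test (0 calls each). The 3 lower neighbours lay farther off. TDRKH, a Tudor-domain protein of the piRNA pathway, differed by -0.47 (SE 0.06, adjusted p = 0.000219), THEM4, a thioesterase, by -0.40 (SE 0.06, adjusted p = 0.000449), and GATAD2B, a subunit of the NuRD chromatin complex, by -0.26 (SE 0.05, adjusted p = 0.00404). LCE2D, a cornified envelope gene, was the higher neighbour with 0.38 (SE 0.11, adjusted p = 0.0297), but lay below the array medians in both groups and lost the call in 5 of 16 alternatives, among them without shCTRL replicate 1 (0.085) or 4 (0.0629) and without shH2A.X replicate 5 (0.0576). The fused S100 genes of the same complex, which join an S100 domain to long repeats (FLG, FLG2, HRNR, RPTN, TCHH, TCHHL1 and CRNN), gave 0 calls of 7, also 0 at an unadjusted p under 0.05 and 0 in the methods' t-test. Of these, FLG2, HRNR, RPTN and TCHH lay below the array medians in both groups, which limits what the 0 calls can show.

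**Figure D3:**
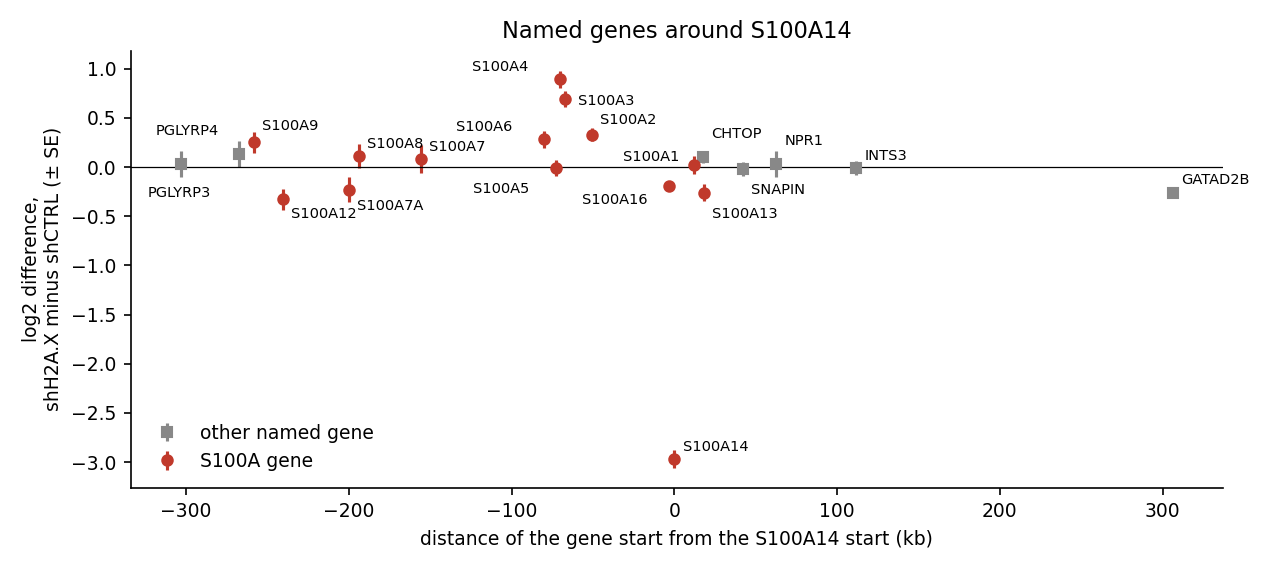
Log2 difference (shH2A.X minus shCTRL) with SE of each named gene around S100A14 against the distance of its start from the start of S100A14 in kb, with red circles for S100A genes and grey squares for other genes. S100A14 at -2.97 stands alone between S100A16 at -0.19 and S100A13 at -0.26, while S100A4 and S100A3 rise side by side about 70 kb to the left.

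Annexins, a family of membrane-binding proteins of which some, but not all, are known to bind S100 proteins, were mostly higher. Of 13 measured, 10 were higher, 1 was lower and 2 did not pass, and the median log2 difference was 0.38 against 0.004 over all genes. ANXA2, the partner of S100A10, read 6.80, 6.70, 6.95 and 7.19 in shCTRL and 7.32, 7.46, 7.47, 7.33 and 7.59 in shH2A.X. Every shH2A.X array exceeded every shCTRL array, and the difference was 0.52 (SE 0.10, adjusted p = 0.00251). ANXA3 rose most evenly, from 10.66, 10.63, 10.64 and 10.67 to 11.62, 11.59, 11.60, 11.67 and 11.63, a difference of 0.97 (SE 0.05, adjusted p = 1.24e-07). ANXA1, the anti-inflammatory annexin that S100A11 binds, rose by 0.47 (SE 0.06, adjusted p = 9.38e-05). ANXA8L1 and ANXA8 differed by 0.82 and 0.79, but are near-identical copies and may share probes. ANXA13 was dim and lost its call in 9 of 16 alternatives, with adjusted p-values up to 0.083 in the limma fit, and among these were each of the 4 fits that left out an shCTRL array and those without shH2A.X replicate 1, 2 or 3 (0.0515 to 0.083).

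ANXA10 was the exception among the annexins. Its values were 6.83, 6.79, 6.66 and 6.68 in shCTRL and 4.98, 4.31, 4.75, 4.69 and 4.68 in shH2A.X. The groups were well apart, and the difference was -2.05 (SE 0.11, adjusted p = 1.78e-07). ANXA4 and ANXA7 differed by 0.02 and 0.00 and did not pass.

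Of the surface receptors that extracellular S100 proteins bind, 7 of 8 listed were measured. There were 3 higher, 0 lower and 4 that did not pass, with ERBB2 not named here. No receptor was lower at an unadjusted p under 0.05 or in the methods' t-test (0 each), although leaving out shCTRL replicate 1 brought TLR4 to -0.23 (limma adjusted p = 0.0399). ALCAM, an adhesion molecule that binds S100A8 and S100A9, read 7.98, 7.97, 7.99 and 8.12 in shCTRL and 8.82, 8.77, 8.84, 8.81 and 8.90 in shH2A.X. The groups were clearly separate, with a difference of 0.81 (SE 0.06, adjusted p = 1.54e-06). NPTN, which binds S100A8, differed by 0.36 (SE 0.07, adjusted p = 0.00265), and BSG, which binds S100A9, by 0.28 (SE 0.05, adjusted p = 0.00292). AGER, the classical S100 receptor RAGE, differed by 0.02 on the brightest of its 7 probe sets and TLR4 by -0.14, and neither passed. TLR4 lay below the array medians in both groups, so little can be said of its change.

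Of 10 intracellular partners listed, 5 were measured, of which 2 were higher and 0 lower, also 0 at an unadjusted p under 0.05 and 0 in the methods' t-test. AHNAK, a large scaffold that the S100A10 and annexin A2 complex recruits, differed by 0.41 (SE 0.07, adjusted p = 0.00121). EZR, which encodes the membrane linker ezrin, differed by 0.17 (SE 0.06, adjusted p = 0.0499) and lost the call in 10 of 17 alternatives, including all 5 fits that left out an shH2A.X array (replicate 1 0.0545, 2 0.0904, 3 0.0706, 4 0.0896, 5 0.101) and those without shCTRL replicate 2 (0.129), 3 (0.115) or 4 (0.0912) in the limma fit. MYH9, which encodes the non-muscle myosin that S100A4 binds, and PPFIBP1 and SUGT1 were among those not named here.

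Since S100A4 is a known target of β-catenin and TCF, 22 other targets of that pathway were set beside it, of which 18 were measured. The limma fit gave 8 higher, 3 lower and 7 that did not pass, with a median log2 difference of 0.22. NOTUM, a secreted Wnt inhibitor, differed by 1.13 (SE 0.08, adjusted p = 2.01e-06), CCND1, the cyclin D1 gene, by 0.83 (SE 0.05, adjusted p = 6.48e-07), and AXIN2, a feedback inhibitor in the β-catenin destruction complex, by 0.77 (SE 0.08, adjusted p = 3.55e-05). AXIN2 read 7.65, 8.04, 7.82 and 7.96 in shCTRL and 8.69, 8.65, 8.70, 8.55 and 8.61 in shH2A.X, with no overlap. DKK1, SP5, NKD1, ZNRF3 and SOX9 were also higher, by 0.68, 0.62, 0.57, 0.55 and 0.20. The SOX9 call was lost without shCTRL replicate 1 (limma adjusted p = 0.0568) or shH2A.X replicate 2 (0.0538). Other known targets went down. RNF43, a ligase that clears Wnt receptors from the cell surface, read 9.00, 8.99, 9.05 and 8.97 in shCTRL and 5.58, 5.70, 5.62, 5.65 and 5.46 in shH2A.X, a difference of -3.40 (SE 0.06). MYC differed by -1.73 (SE 0.08) and EPHB3 by -0.30 (SE 0.09, adjusted p = 0.0296), so the listed targets did not move as a block. The EPHB3 call was lost in 6 of 17 alternatives, in the methods' t-test (0.0644) and in the limma fits without shCTRL replicate 1 (0.0826) or 2 (0.0738) or shH2A.X replicate 3 (0.0622), 4 (0.0515) or 5 (0.0554).

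**Figure D4:**
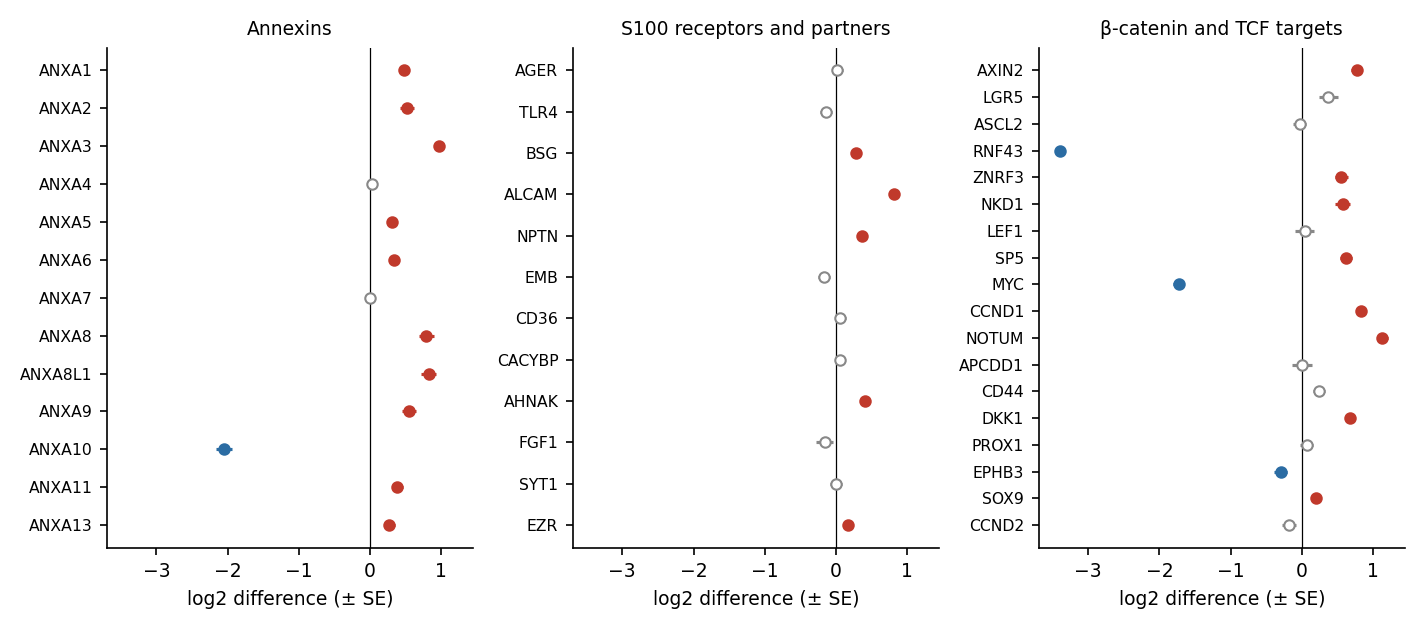
Log2 difference (shH2A.X minus shCTRL) with SE of the measured annexins, of the S100 receptors and intracellular partners, and of the β-catenin and TCF target genes, with filled circles for genes that passed the limma test. Of 13 annexins 10 are higher and ANXA10 alone is lower at -2.05, and among the targets RNF43 at -3.40 and MYC at -1.73 lie opposite to NOTUM at 1.13.

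S100A14 marks epithelial cells and S100A4 is often read as a mesenchymal gene, so both were set beside listed genes of these states. Of 22 epithelial genes measured out of 32 listed, 14 were lower, 2 higher and 6 did not pass, with a median log2 difference of -0.46. The largest falls were in GRHL2, a transcription factor of epithelial identity, by -2.76, and in CLDN7, a tight junction claudin, by -1.73, whereas EHF and KRT19 were higher by 1.68 and 0.64. Of 14 mesenchymal genes measured out of 20, 7 were higher, 1 lower and 6 did not pass. THBS1 and VCAN, which encode secreted matrix proteins, differed by 2.90 and 2.11, SNAI2, which encodes Slug, by 1.81 (SE 0.14, adjusted p = 3.53e-06), and ZEB1 by 1.26 (SE 0.09, adjusted p = 1.34e-06), while SNAI1, which encodes Snail, was lower with -0.63. The study picked SNAI2, ZEB1, VIM, VCAN and THBS1 on these arrays, so their direction here is not independent evidence. By real-time PCR the study also reported these genes higher in shH2A.X cells and in H2A.X knockout HCT116 cells.

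S100A4 is also a marker of fibroblasts and S100A8, S100A9 and S100A12 are markers of myeloid cells, so markers of such cells were checked. Of 12 fibroblast markers 4 were measured, and 0 passed, with 1 higher and 1 lower at an unadjusted p under 0.05 and 0 higher and 1 lower in the methods' t-test. Their mean log2 level ranged over 4.47 to 4.61 in shCTRL and 4.39 to 4.54 in shH2A.X. DCN and LUM lay below every array's median, whereas FBLN1 (6.52 to 6.84 over all arrays) and THY1 (4.98 to 5.46) lay above it. Of 13 leukocyte markers 5 were measured, of which 2 were higher, 0 lower and 3 did not pass, with 3 higher and 1 lower at an unadjusted p under 0.05 and 2 higher and 0 lower in the methods' t-test. Their mean level ranged over 5.05 to 5.23 in shCTRL and 5.77 to 5.95 in shH2A.X. The higher genes were LYZ, the lysozyme gene, at 2.67 (SE 0.12, adjusted p = 4.65e-08) and CD68 at 0.90 (SE 0.07). Of the others, TYROBP differed by -0.34 (SE 0.14, adjusted p = 0.117), CSF1R by 0.13 (SE 0.08, adjusted p = 0.296) and CD14, which lay below every array's median, by 0.27 (SE 0.11, adjusted p = 0.119). The part of these markers in the S100 values was not tested. Colorectal epithelial markers, with 9 of 11 measured, had mean levels of 7.01 to 7.17 in shCTRL and 7.18 to 7.26 in shH2A.X, and of these CEACAM5 alone lay below every array's median. These means joined opposite moves, since 2 markers were higher, 1 was lower and 6 did not pass. KRT20, an intestinal keratin, was higher by 1.00 (SE 0.12, adjusted p = 0.000108) and KRT19 by 0.64, whereas EPCAM, an epithelial adhesion molecule, differed by -0.67 (SE 0.05, adjusted p = 4.49e-06).

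The genes whose array profiles were most like those of S100A14 and S100A4 were found by the root mean square difference between log2 values centred on each gene's own mean, over all 9 arrays. This measure is dominated by the difference between the groups, so it names genes that moved the same way by a like amount. Nearest to S100A14 were SAT1, a polyamine acetyltransferase, at 0.232, RNF43 at 0.245, GRHL2 at 0.255, EGR1, an immediate early transcription factor, at 0.304 and CAPN6, a calpain-like protein, at 0.441. SAT1 read 11.20, 11.21, 11.09 and 11.26 in shCTRL and 8.19, 8.30, 7.94, 8.02 and 8.16 in shH2A.X. CAPN6, RNF43 and SAT1, with differences of -3.68, -3.40 and -3.07, were the genes that fell further than S100A14.

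The fall of S100A14 ranked 4th by size and the rise of S100A4 148th, so more genes rose as far as S100A4 than fell as far as S100A14. Closeness in profile can therefore not be compared between them. S100A4 had smaller root mean square differences to its nearest genes than S100A14. EPDR1, an ependymin-related protein, was nearest at 0.0967, followed by POGLUT3, an O-glucosyltransferase, at 0.107, TMEM59L at 0.118, RTTN, a centrosomal protein, at 0.118 and CCND1 at 0.119. EPDR1 read 6.36, 6.63, 6.69 and 6.66 in shCTRL and 7.29, 7.54, 7.35, 7.40 and 7.56 in shH2A.X. Differences were 0.84 for EPDR1, 0.98 for POGLUT3, 0.98 for TMEM59L, 0.93 for RTTN and 0.83 for CCND1. No S100A gene was among the 5 nearest to either.

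**Figure D5:**
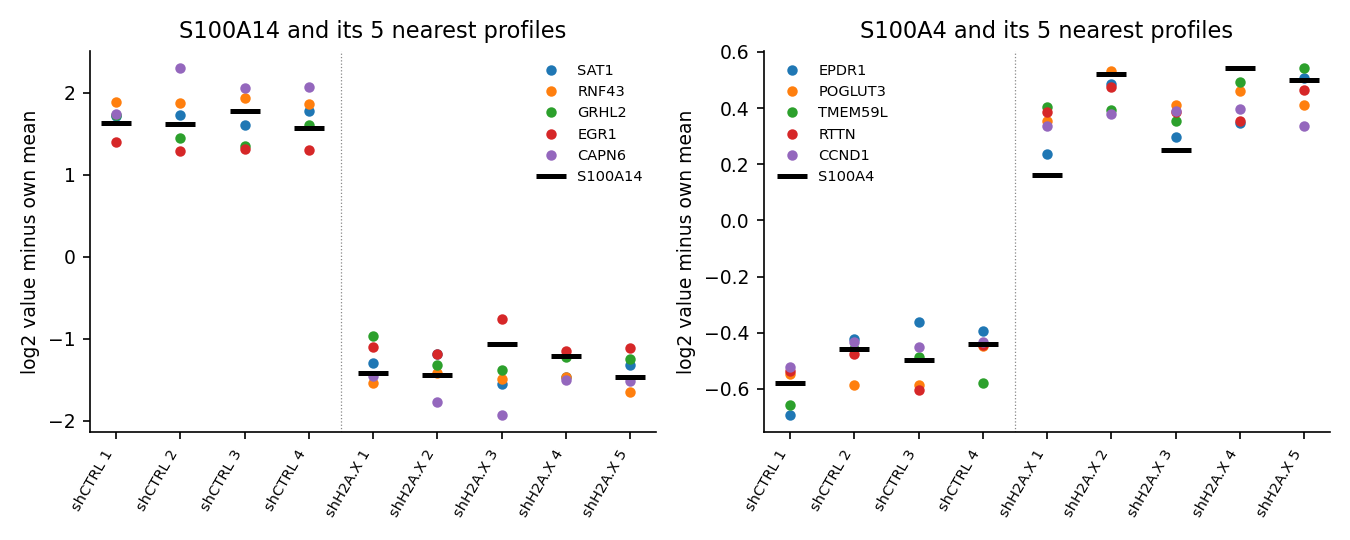
Log2 value minus the gene's own mean on each of the 9 arrays for S100A14 and S100A4, drawn as black bars, and for the 5 genes with the most similar profile to each, drawn as points. The points follow the S100A4 bars within about the spread between arrays (root mean square 0.0967 to 0.119) and the S100A14 bars less closely (0.232 to 0.441). These ranges cannot be compared as likeness, since more genes moved as far as S100A4 than as far as S100A14.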

How the data were processed

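RNA of 9 HCT116 cultures (4 shCTRL, 5 shH2A.X, groups from the labels) was hybridised to 1-colour arrays. The study's methods give 5 per group, and 4 shCTRL arrays were given here. The authors deposited log2 values of 53617 probe sets, made with Affymetrix Expression Console and Partek 6.6 per the submitters' processing notes. The background correction, normalization and summary method are not stated in any source used here, and scanner files were not used here. Of the probe sets, 16098 carry a gene symbol in the annotation given and 37519 do not. The probe set of highest mean stood for each of 14884 genes (779 have several, each S100 gene has 1), with no filter on dim probe sets. Differences came from limma 3.58.1 (lmFit, eBayes) in R 4.3.3, two-sided, with Benjamini-Hochberg adjustment over all genes and a threshold of 0.05. S100A14 and S100A4 have no test. The code was tested on simulated data. Members and lists were chosen with earlier results of these data known. Genes were named by rule: all S100 genes, per list up to 2 rises and 2 falls of largest size, all members of counts of 5 or fewer, ANXA2, and the 5 nearest profiles. ANXA1, ANXA4, ANXA7, ANXA13, AXIN2, AHNAK, AGER, TLR4, TYROBP, CSF1R and the further higher β-catenin targets were added after their values were seen. Alternatives were quantile normalization, median centring, a filter on dim probe sets, a variance trend, array weights, a replicate block, the mean of all probe sets, the methods' t-test and leaving out each array. Array number limits precision.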

Additional observations from a re-analysis of the deposited data

Results flagged for a closer look

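Each group of arrays was checked for an array far from the rest, by Dixon's test, for 59 named genes (118 groups), where chance alone marks about 1 group in 20. It marked 4 groups. S100A7 in shH2A.X replicate 1 read 4.64, against 3.89 to 4.05 in the other shH2A.X arrays. S100A11 in shH2A.X replicate 3 read 8.17, against 7.81 to 7.84. ALCAM in shCTRL replicate 4 read 8.12, against 7.97 to 7.99, which leaves it below all shH2A.X arrays. EGR1 in shH2A.X replicate 3 read 7.65, against 7.23 to 7.32. S100A14 and S100A4 were not among the groups marked.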

How the results depend on the processing

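Over 14 alternatives the log2 difference of S100A14 ranged from -3.03 to -2.92 and that of S100A4 from 0.85 to 0.95. The count of other S100A genes lower, 1 as reported, was 2 with the filter on dim probe sets, 3 with a variance trend, 2 with array weights, 0 with the replicate block and 0 to 2 when single arrays were left out (0 without shCTRL replicate 1 or 2 or shH2A.X replicate 4, 2 without shH2A.X replicate 3). The 1 higher chromosome 1 neighbour became 0 with the filter, with the replicate block and in the methods' t-test, and 0 to 2 on leaving out arrays (2 without shCTRL replicate 3). The intracellular partners higher, 2 as reported, were 1 with the replicate block, 1 with the mean of all probe sets and 1 to 2 on leaving out arrays, and the receptors lower were 0 to 1. On leaving out arrays the differences of genes that did not pass crossed zero for S100A1 (-0.045 to 0.078), S100A11 (-0.099 to 0.003), S100A5 (-0.057 to 0.027) and S100A7 (-0.060 to 0.127). Replicate numbers did not pair the arrays, since deviations of same-numbered arrays correlated at -0.0855 to 0.024 and 0 of 4 correlated best with their own number. The replicate block gave 2344 calls over all genes against 3404, and ended the calls of S100A6 (limma adjusted p = 0.0607), S100A16 (0.121), EZR (0.204), LCE2D (0.0793), ANXA13 (0.0531) and SOX9 (0.0671). S100A3, S100A10 and S100A2 kept direction and call in all 17 alternatives. The causes of these changes were not tested. Dim probe sets and 4 or 5 arrays a group limit what can be seen of small differences.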
